A study of Mus musculus with 6 samples.

Results

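The constitutive subunits of the proteasome were examined in RNA-seq of DBA-positive mouse kidney cells, comparing WT, ADPKD and ADPKD+MMPP mice. The genes were chosen by symbol alone, as all gene symbols made of *Psma*, *Psmb*, *Psmc* or *Psmd* and a number, without the 3 inducible immunoproteasome subunits *Psmb8*, *Psmb9* and *Psmb10*. This gave 36 of the 55367 symbols in the deposited tables. They comprise 16 core genes, 17 regulatory particle genes and 3 genes for chaperones that help to build the base of the regulatory particle. WT mice were *Pkd1*+/+ and received saline. ADPKD mice were *Pkd1*-/- and received saline, and ADPKD+MMPP mice were *Pkd1*-/- and received MMPP, a melanin-like nanoparticle that carries polyethylene glycol and chelated manganese. The knockout was made in *Pkd1* fl/fl;*Cre/Esr1*+ male mice by tamoxifen at P25 and P28. The promoter that drives the Cre is not given in the sources used here, nor is it said whether the WT mice received tamoxifen. Injections of MMPP began on day 55 and were repeated every 4 days. The dose is 10 mg/kg in the methods of the study and 0.2 mg in its results. Cells of every group were taken on Day115. Each group had 2 libraries, and the labels do not say whether these came from separate or pooled animals, so that p-values measure only the spread between these samples. DBA is a lectin that binds collecting duct epithelium, but the extraction note in the labels names both DBA-positive cells and, at the library step, whole kidney.

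The proteasome is the protease that degrades most ubiquitin-tagged proteins of the cell. Its core particle is a stack of rings of alpha and beta subunits, in which 3 of the beta subunits cut peptide bonds. The regulatory particle caps the core and has a base, whose ring of ATPases unfolds substrates and threads them into the core, and a lid, which removes ubiquitin. Each subunit occupies a fixed place in its ring, and the transcription factor NRF1, encoded by *Nfe2l1*, is known to raise the genes of both particles together when proteasome capacity falls short.

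The deposited values are FPKM, which scale the reads of a gene by its exon length and by the library total. Exon length here is that of all annotated transcripts of a gene together, so comparisons of level between genes also depend on the annotation. Depth recovered from the low values was 30.6 to 33.1 M reads in the WT and ADPKD libraries and 11.8 and 10.9 M reads in the ADPKD+MMPP libraries. Among the low values near a whole read, odd read numbers made up 37.6% to 39.1% in the former and 8.89% and 8.37% in the latter. Treatment and the making of the values therefore cannot be told apart in any comparison with ADPKD+MMPP. Principal cell markers such as *Aqp2* were present in all libraries, with none of 7 at 0 and a summed level of 2074 to 2772 FPKM in WT, 934 to 2462 in ADPKD and 5414 to 5438 in ADPKD+MMPP. Other markers moved with the groups. In ADPKD against WT, 6 of 6 macrophage markers were called higher, with a summed level of 63.8 to 65 FPKM in WT and 478 to 575 in ADPKD, and 5 of 5 endothelial, 5 of 5 intercalated cell and 3 of 3 podocyte markers were called lower. In ADPKD+MMPP, 10 proximal tubule markers summed to 13323 to 13995 FPKM, against 262 to 852 in ADPKD, and 7 of them were called higher. Of the other lists after treatment, 5 of 5 intercalated cell markers were called higher, with a sum of 18.8 to 34.9 FPKM in ADPKD and 148 to 152 in ADPKD+MMPP. Of 6 tested principal cell markers 4 were called higher and 1 lower, and of the macrophage markers 3 were called higher and 3 lower, with a sum of 1056 to 1108 FPKM in ADPKD+MMPP. Endothelial markers summed to 249.6 to 269 FPKM in ADPKD and 104 to 106 in ADPKD+MMPP, with 3 of 5 called lower, and 1 of 3 podocyte markers was called lower. In bulk RNA, fewer cells of a type and less RNA per cell cannot be told apart. *Pkd1* itself was 17.7 and 17.2 FPKM in WT, 7.64 and 8.91 in ADPKD and 4.34 and 3.99 in ADPKD+MMPP.

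In WT cells, the 14 core and 17 regulatory particle genes with detectable levels formed a narrow band. They lay between 10.1 FPKM (*Psmc2*) and 61.3 FPKM (*Psmb4*) in WT library 1 and between 11.1 and 62.5 FPKM in WT library 2, for the same genes, a range of 6.04 and 5.63 times. The median level was 4.65 and 4.59 on the log2(FPKM + 1) scale for the core and 4.70 and 4.56 for the regulatory particle. The SD across these 31 genes was 0.73 and 0.71 on that scale, against 1.70 in both libraries across the 14862 genes tested. Summed FPKM of the core was 0.883 and 0.887 times that of the regulatory particle. The order of the levels was much the same in both WT libraries and in ADPKD. Spearman rho across the 31 genes was 0.946 to 0.975 between WT and ADPKD libraries, 0.989 within WT and 0.963 within ADPKD. These are correlations across genes, which are not independent replicates.

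Among the core genes, *Psmb4* and *Psma6* were the highest in WT, at 61.3 and 62.5 and at 49.6 and 47.8 FPKM. The catalytic subunits differed in FPKM. *Psmb6*, the caspase-like subunit, had 43.2 and 46.3 FPKM, *Psmb5*, the chymotrypsin-like subunit, had 34.5 and 39.7 and *Psmb7*, the trypsin-like subunit, had 16.3 and 16.6. Their exon lengths were 1872, 899 and 3421 bases, and their reads in WT library 1 were 2474, 949 and 1703. In the regulatory particle, *Psmc5* and *Psmd8* were the highest in WT library 1, at 55.2 and 53.4 FPKM. The ATPase ring had *Psmc2* at its low end, with 10.1 and 11.1 FPKM, and *Psmc5* and *Psmc3* at its high end, with 55.2 and 52 and with 49.5 and 53.1 FPKM. Exon length was 5031 bases for *Psmc2* and 1394 for *Psmc5*, with 1560 and 2352 reads in WT library 1. The chaperones *Psmd5* and *Psmd9* had 3.37 and 3.99 and 2.83 and 3.19 FPKM, less than any of the 31 subunits, and *Psmd10* had 11.4 and 10.8 FPKM. These 3 genes have 7230, 7248 and 1469 exon bases, and had 746, 627 and 512 reads in WT library 1.

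A pair of members was near the floor. *Psma8*, which replaces *Psma7* in the testis, had 0.433 and 0.285 FPKM in WT, 0.194 and 0.125 in ADPKD, and 0 and 0 in ADPKD+MMPP. *Psmb11*, the thymus-specific catalytic subunit, had 0.253 and 0.276 FPKM in WT, 0.12 and 0.0651 in ADPKD, and 0.0354 and 0 in ADPKD+MMPP. Neither reached 1 FPKM in 2 or more libraries, and they were not tested. The other 34 members passed this filter and were above it in every WT and ADPKD library.

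**Figure D1:**
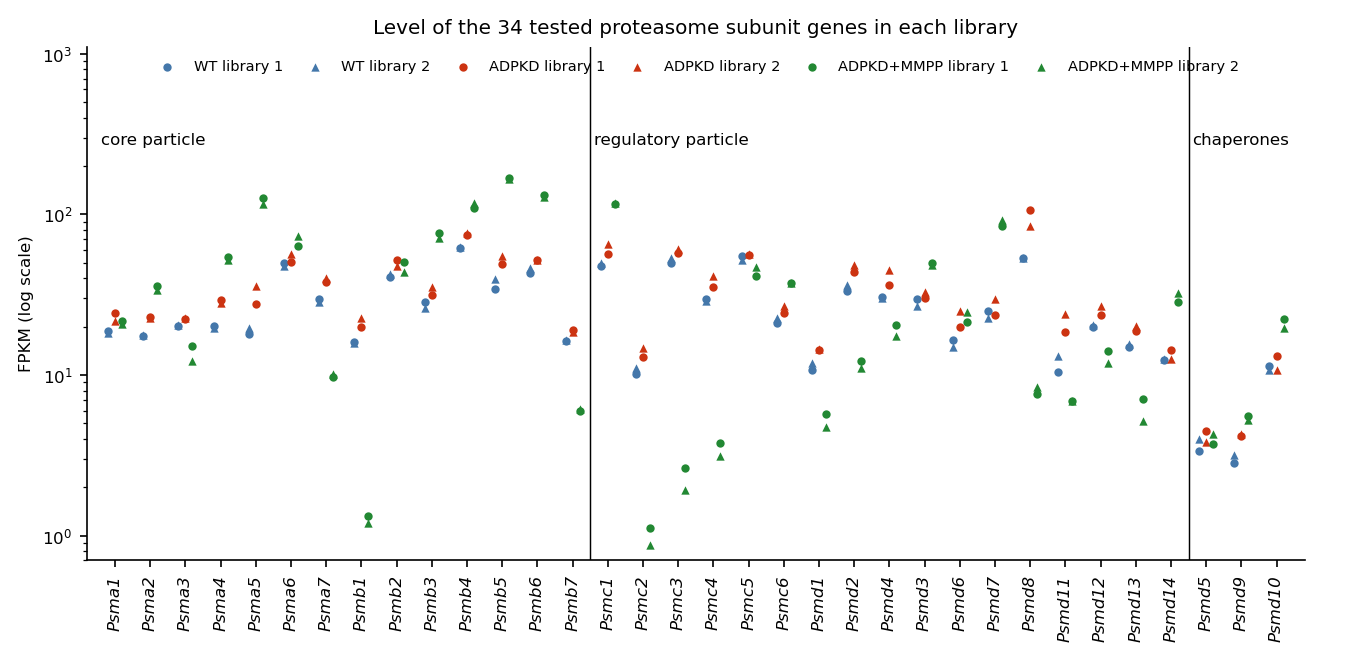
FPKM (log axis) of the 34 tested members in each library, with WT in blue, ADPKD in red and ADPKD+MMPP in green, and circles and triangles for libraries 1 and 2 of a group. Both ADPKD points lie above both WT points for 30 of the 34 members. ADPKD+MMPP points range from 0.874 FPKM for *Psmc2* to 169 FPKM for *Psmb5*.

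The comparison of ADPKD with WT sets cells of *Pkd1*-/- mice beside cells of *Pkd1*+/+ mice. Cell type markers also differed between these groups, so loss of *Pkd1* and cell content cannot be told apart in it. The subunit genes lay a small step above WT almost throughout. All 34 tested members had a positive log2 fold change in the deposited FPKM, and 33, 33 and 32 did after scaling to a common sum, quantile normalization and centring by exon structure. The values went from 0.06 for *Psmc5* to 0.83 for *Psmd8*, with a median of 0.31, while 52.3% of all tested genes had a positive value and their median was 0.03. Both ADPKD libraries exceeded both WT libraries for 30 of the 34 members, against 35.5% of all tested genes. The exceptions were *Psmd7*, *Psmd14*, *Psmd5* and *Psmd10*, whose libraries overlapped. Only 3 members, or 8.82%, were called higher at a fold change of at least 1.5 and an unadjusted P under 0.05, where 14.2% of all tested genes were called higher and 26.7% in either direction. No member passed an unadjusted P under 0.05 in the lower direction. None was called lower by limma, where 12.5% of all genes were. By P alone 16 members were higher, which is 47.1% against 21.7% of all genes, and with Benjamini-Hochberg adjustment over all genes 6 were higher, which is 17.6% against 14.1%.

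The members that rose past the fold threshold were *Psmd8* and *Psmd11* of the lid and *Psma5* of the alpha ring. *Psmd8* (GRCm38 chromosome 7 from 29174188 to 29180701) showed 53.4 and 53.2 FPKM in WT, 107 and 85.1 in ADPKD, and 7.59 and 8.45 in ADPKD+MMPP. Its mean FPKM was 1.8 times that of WT. Against WT its log2 fold change was 0.83 (SE 0.15, adjusted p = 0.0142 from limma), and it became the highest of the 31 subunit genes in both ADPKD libraries. *Psmd11* (GRCm38 chromosome 11 from 80428615 to 80473248) showed 10.5 and 13.1 FPKM in WT, 18.6 and 23.9 in ADPKD, and 6.93 and 6.92 in ADPKD+MMPP, with 0.79 (SE 0.173, adjusted p = 0.0241 from limma). *Psma5* (GRCm38 chromosome 3 from 108256926 to 108279974) showed 17.9 and 19.6 FPKM in WT, 27.7 and 35.9 in ADPKD, and 126 and 116 in ADPKD+MMPP, with 0.72 (SE 0.16, adjusted p = 0.025 from limma). The ADPKD libraries differed from each other for these genes, but both were above both WT libraries. Of the 50-base words in the transcripts of *Psma5*, 55.4% also occur in another gene, mostly *Gm8394*, and 16.7% of those of *Psmd11* do, mostly in *A730017L22Rik*, so part of their reads cannot be assigned with certainty. Without ADPKD replicate 2, *Psma5* was below the fold threshold at 0.54, and without ADPKD replicate 1 *Psmd6* of the lid was called as well, at 0.63.

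A further set of genes passed the adjusted p but not the fold threshold. *Psma4* had 20.3 and 19.5 FPKM in WT and 29.2 and 28 in ADPKD, with a log2 fold change of 0.50 (SE 0.112, adjusted p = 0.0252 from limma). *Psmb5* had 34.5 and 39.7 and 49.3 and 54.7 FPKM in the same order, with 0.48 (SE 0.13, adjusted p = 0.0458 from limma), and *Psma7* had 29.7 and 28.5 and 38.1 and 40.1, with 0.41 (SE 0.112, adjusted p = 0.0454 from limma). The other catalytic subunits had smaller values, 0.21 for *Psmb6* and 0.18 for *Psmb7*, and did not pass. The lowest core values belonged to *Psma3* and *Psma6*, both at 0.13. *Psma3* had 20.1 and 20.5 FPKM in WT and 22.2 and 22.6 in ADPKD, and *Psma6* had 49.6 and 47.8 and 50.7 and 56.3.

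The step had a similar median in both particles. The median log2 fold change was 0.30 for the 14 core genes and 0.33 for the 17 regulatory particle genes. Within the regulatory particle, the 6 ATPase genes *Psmc1* to *Psmc6*, which drive unfolding, had a median of 0.27 and a range from 0.06 (*Psmc5*, 55.2 and 52 FPKM in WT and 55.8 and 56.4 in ADPKD) to 0.38 (*Psmc4*, 29.5 and 29 and 35.5 and 41.4). The scaffolds *Psmd1* and *Psmd2* and the ubiquitin receptor *Psmd4*, with 10.7 and 11.9, 33.2 and 36.2 and 30.5 and 30 FPKM in WT, lay at 0.33, 0.40 and 0.41. The 8 lid genes ranged from 0.09 for *Psmd14*, the deubiquitinase (12.4 and 12.6 FPKM in WT and 14.3 and 12.5 in ADPKD), to *Psmd8*. The chaperones were at 0.14 (*Psmd5*, 4.47 and 3.82 FPKM in ADPKD), 0.39 (*Psmd9*, 4.18 and 4.28) and 0.09 (*Psmd10*, 13.1 and 10.7). The core median minus the regulatory particle median was -0.05 and 0.03 in the WT libraries and 0.31 and 0.26 in the ADPKD libraries on the log2(FPKM + 1) scale, whereas the ratio of summed FPKM went from 0.883 and 0.887 to 0.866 and 0.849, so the direction of the balance depended on the summary. The part of the macrophage and other marker changes in these differences was not tested.

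The promoters of the 3 called genes are shown to let their upstream sequence be compared. They are the 250 bases before the RefSeq start on GRCm38.p6, written 5′ to 3′ on the gene's strand, with GGGCGG on either strand in capitals. The search covered CCAAT and GGGCGG on both strands.
Psmd8 (chr7:29180674-29180923, - strand): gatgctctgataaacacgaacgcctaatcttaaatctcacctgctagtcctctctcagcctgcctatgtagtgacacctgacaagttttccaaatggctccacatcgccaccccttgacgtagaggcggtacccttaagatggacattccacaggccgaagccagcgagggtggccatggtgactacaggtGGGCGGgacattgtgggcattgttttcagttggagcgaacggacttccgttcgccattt
Psmd11 (chr11:80428365-80428614, + strand): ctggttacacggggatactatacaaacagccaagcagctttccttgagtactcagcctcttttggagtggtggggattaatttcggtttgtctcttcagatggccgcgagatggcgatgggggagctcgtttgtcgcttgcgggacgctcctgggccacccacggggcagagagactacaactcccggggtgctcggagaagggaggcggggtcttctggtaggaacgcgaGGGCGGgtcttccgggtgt
Psma5 (chr3:108256676-108256925, + strand): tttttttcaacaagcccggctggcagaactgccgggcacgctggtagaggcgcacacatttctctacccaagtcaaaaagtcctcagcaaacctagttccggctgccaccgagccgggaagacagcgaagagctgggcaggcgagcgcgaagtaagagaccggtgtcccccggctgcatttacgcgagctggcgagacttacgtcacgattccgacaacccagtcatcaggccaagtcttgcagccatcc
*Psmd8* and *Psmd11* each had 1 GGGCGG and *Psma5* had none, and CCAAT was in none of the 3, so that no matches overlapped. Of the 29 members with a RefSeq promoter, 17 had GGGCGG (58.6%) and 12 had CCAAT (41.4%). Among all 27025 genes with a promoter of the same length these shares were 35.4% and 37.5%. The GC content of the 3 promoters was 52.8%, 59.2% and 58.4%. *Psma8*, *Psmb1*, *Psmb2*, *Psmb7*, *Psmc3*, *Psmd3* and *Psmd7* had no entry.

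**Figure D2:**
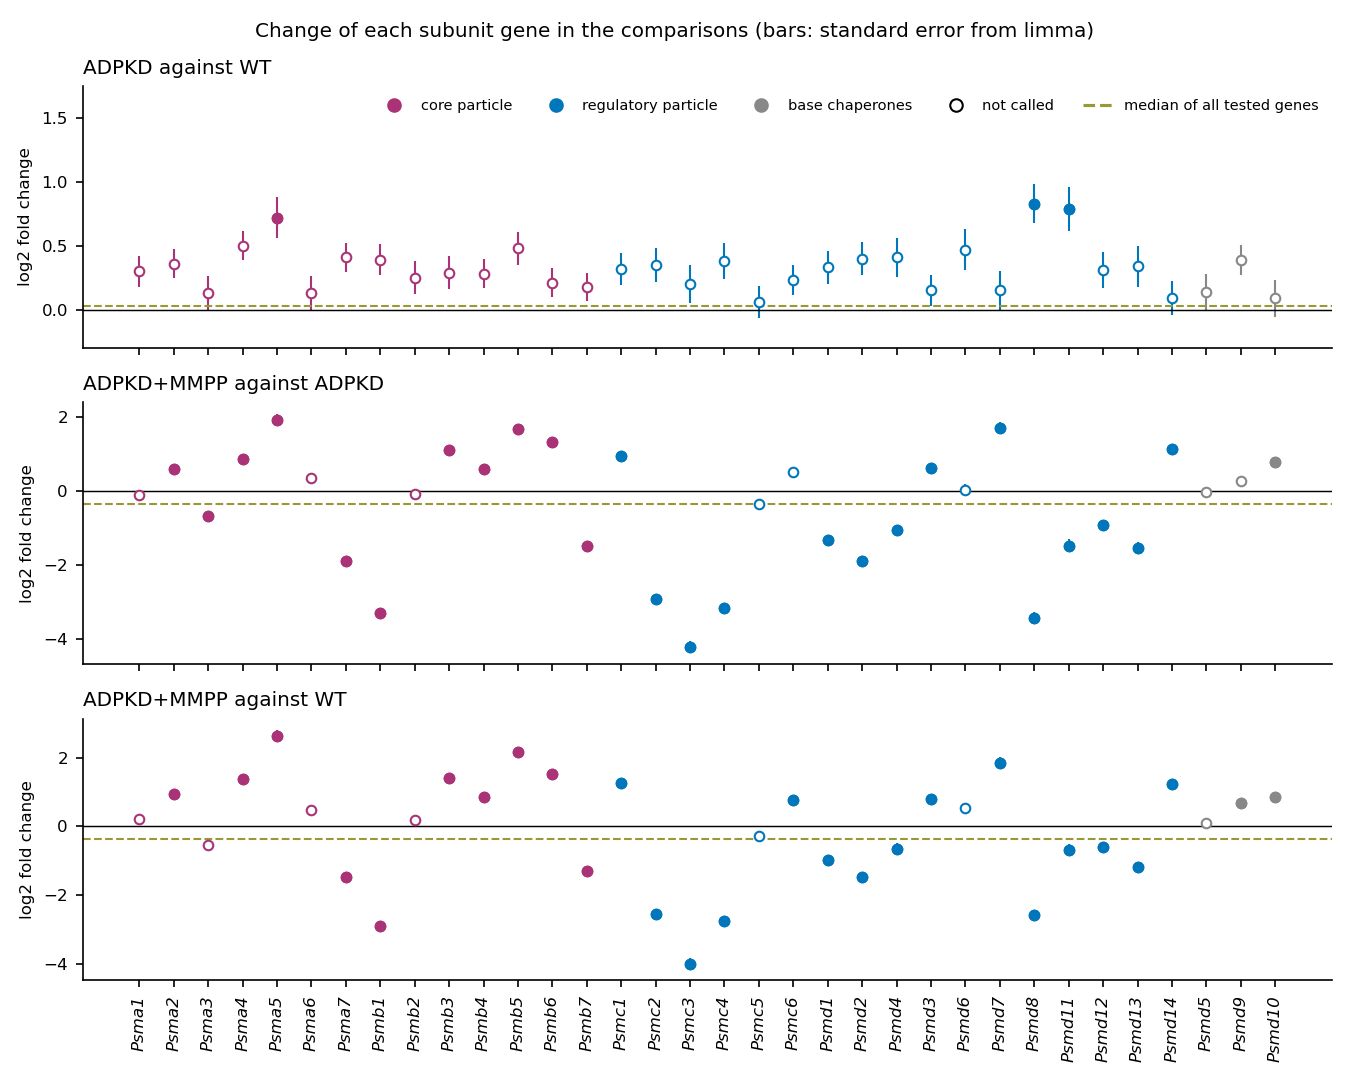
Log2 fold change on the log2(FPKM + 1) scale of the 34 tested members in each comparison, with standard errors from limma, core in purple, regulatory particle in blue and base chaperones in grey. Filled points are called members, and the dashed line is the median of all tested genes (0.03, -0.36 and -0.36). In ADPKD against WT all points lie above 0, and in both comparisons of ADPKD+MMPP they lie on either side of it, from -4.20 to 1.91 against ADPKD and from -4.00 to 2.63 against WT.

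After MMPP treatment the band of subunit levels came apart. In ADPKD+MMPP against ADPKD, 12 members were called higher and 14 lower, 76.5% in all, where 70.9% of all tested genes were called, 27.9% higher and 43.0% lower. The total share was close to that of all genes, so the number of calls says nothing particular about the members. The log2 fold changes ran from -4.20 for *Psmc3* to 1.91 for *Psma5*, with a median of -0.06 and an SD of 1.62 across members, beside a median of -0.36 and an SD of 1.54 across all tested genes. The 4 highest changes were *Psma5*, *Psmd7*, *Psmb5* and *Psmb6*, and the 4 lowest were *Psmc3*, *Psmd8*, *Psmb1* and *Psmc4*. Subunits of the same ring were found at both ends. Scaling moved the split of calls. After scaling to a common sum, 7 members were called higher and 15 lower, and centred by exon structure 14 and 10, while the median of all tested genes went from -0.36 to -0.55 with a common sum and to 0.10 under quantile normalization, where 54.0% of all called genes were higher against 39.3%.

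In the core, 7 of 14 genes were called higher and 4 lower, with a median of 0.46. The catalytic subunits parted. *Psmb5* had 169 and 166 FPKM in ADPKD+MMPP against 49.3 and 54.7 in ADPKD, and its log2 fold change was 1.67 (SE 0.13, adjusted p = 0.000127 from limma). *Psmb6* had 132 and 128 FPKM against 52.1 and 51.9, with 1.31 (SE 0.112, adjusted p = 0.000176 from limma). *Psmb7* had 5.97 and 6.14 FPKM against 19 and 18.4, with -1.48 (SE 0.109, adjusted p = 0.000106 from limma). The highest of the catalytic subunits was thus 2.74 and 2.97 times the lowest in the ADPKD libraries and 28.3 and 27.1 times in the ADPKD+MMPP libraries. Of the 50-base words of *Psmb5*, 54.1% also occur in another gene, mostly *Gm3375*, which had 2.7 and 2.35 FPKM in ADPKD and 0.851 and 0.921 in ADPKD+MMPP, and of those of *Psmb7* 28.1% occur in *Nek6*. *Psmb1*, a structural beta subunit, had 1.33 and 1.2 FPKM against 19.9 and 22.5 and 16.1 and 15.8 in WT, with -3.30 (SE 0.122, adjusted p = 2.21e-05 from limma). *Psmb3* and *Psmb4* were called higher as well, at 1.11 and 0.59, and 55.8% of the 50-base words of *Psmb3* also occur in another gene. Across the 7 genes of the beta ring the highest level was 3.89 and 4.15 times the lowest in ADPKD and 127 and 139 times in ADPKD+MMPP.

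In the alpha ring, which gates entry to the core, *Psma5* had 126 and 116 FPKM against 27.7 and 35.9 in ADPKD, with a log2 fold change of 1.91 (SE 0.16, adjusted p = 0.000166 from limma). *Psma4* and *Psma2* were also called higher, at 0.87 and 0.59, with 54 and 52.1 FPKM for *Psma4*. Of the 50-base words of *Psma4*, 23.7% also occur in another gene. *Psma7* was called lower, with 9.65 and 10.1 FPKM against 38.1 and 40.1 and -1.88 (SE 0.112, adjusted p = 5.68e-05 from limma), as was *Psma3* at -0.68, with 15.1 and 12.2 FPKM. *Psma1* and *Psma6* were not called, at -0.10 and 0.34, with 63.1 and 73.4 FPKM for *Psma6*. The near copy of *Psma3*, *Gm13835*, which shares 22.0% of the *Psma3* 50-base words, had 58.2 and 56.4 FPKM in ADPKD and 2.47 and 2.94 in ADPKD+MMPP, so it is uncertain which reads belong to which gene.

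In the regulatory particle, 4 of 17 genes were called higher (23.5%) and 10 lower (58.8%), with a median of -1.06. Among all tested genes these shares were 27.9% and 43.0%, with a median of -0.36. Centred by exon structure, the regulatory particle median was -0.03. The ATPase ring was divided too. *Psmc1* had 47.8 and 49.5 FPKM in WT, 56.6 and 65.6 in ADPKD, and 116 and 118 in ADPKD+MMPP, with 0.93 (SE 0.126, adjusted p = 0.00101 from limma) after treatment. *Psmc3* had 49.5 and 53.1 FPKM in WT, 57.1 and 60.7 in ADPKD, and 2.63 and 1.93 in ADPKD+MMPP, with -4.20 (SE 0.147, adjusted p = 2.21e-05 from limma), so its mean FPKM in ADPKD was 25.8 times that after treatment. *Psmc2* and *Psmc4* had 1.11 and 0.874 and 3.76 and 3.14 FPKM in ADPKD+MMPP against 12.9 and 14.8 and 35.5 and 41.4 in ADPKD, at -2.90 and -3.15. These 3 genes lay below every WT and ADPKD value. *Psmc5* had 41.1 and 46.8 FPKM against 55.8 and 56.4 and *Psmc6* had 37.1 and 37.3 against 24.4 and 27 and 21 and 22.5 in WT, and neither passed the fold threshold. The ratio of the highest to the lowest ATPase was 4.43 and 4.44 in ADPKD and 104 and 135 in ADPKD+MMPP.

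The scaffolds and the receptor of the base were all called lower in the deposited values, but centred by exon structure *Psmd4* was at 0.32 and *Psmd2* was not called, at -0.24. *Psmd1* had 5.7 and 4.77 FPKM against 14.4 and 14.5 in ADPKD, with -1.31 (SE 0.132, adjusted p = 0.000318 from limma). *Psmd2*, the docking scaffold for shuttle proteins, had 12.3 and 11.1 against 43.7 and 48.4, with -1.89 (SE 0.129, adjusted p = 8.22e-05 from limma), and *Psmd4* had 20.4 and 17.5 against 36.5 and 45.1, with -1.06 (SE 0.153, adjusted p = 0.00131 from limma). In the lid, *Psmd7* and *Psmd14*, which form the deubiquitinase pair, were both called higher. *Psmd14* had 28.5 and 32.4 FPKM against 14.3 and 12.5, with 1.13 (SE 0.132, adjusted p = 0.000551 from limma), and *Psmd7* had 84.7 and 92 against 23.5 and 29.7 and 25 and 22.6 in WT, with 1.70 (SE 0.155, adjusted p = 0.000218 from limma). *Psmd3* was called higher as well, at 0.63. *Psmd8* fell from 107 and 85.1 to 7.59 and 8.45 FPKM, with -3.42 (SE 0.15, adjusted p = 2.84e-05 from limma), and *Psmd11*, *Psmd13* and *Psmd12* were called lower at -1.48, -1.54 and -0.92. *Psmd6* was at 0.04 and was not called. Of the 50-base words of *Psmc1*, *Psmd2* and *Psmd13*, 17.6%, 25.6% and 11.8% also occur in another gene. Of the chaperones, *Psmd10* was called higher, with 22.3 and 19.7 FPKM against 13.1 and 10.7 and 0.77, while *Psmd5* (3.7 and 4.28 FPKM) and *Psmd9* (5.52 and 5.21 FPKM) were at -0.04 and 0.28 and were not called.

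In the treated cells most subunits differed from WT as well. This comparison shares the ADPKD+MMPP libraries with the one before. In ADPKD+MMPP against WT, 14 members were called higher and 13 lower, 79.4% in all, where 73.9% of all tested genes were called, 30.1% higher and 43.8% lower. This total too was close to the background. After scaling to a common sum the numbers were 8 and 15. The core median was 0.67 and the regulatory particle median was -0.65, with -0.36 for all genes. The members past the threshold in ADPKD took different paths. *Psma5*, higher in ADPKD, was higher still at 2.63 against WT. *Psmd8* was -2.59 and *Psmd11* -0.68 against WT, below WT levels. The highest and lowest values of the core were *Psma5* and *Psmb5* (2.15) and *Psmb1* (-2.90) and *Psma7* (-1.47), and those of the regulatory particle were *Psmd7* (1.85) and *Psmc1* (1.25) and *Psmc3* (-4.00) and *Psmc4* (-2.77). The 7 members not called against WT were *Psma1*, *Psma3*, *Psma6*, *Psmb2*, *Psmc5*, *Psmd6* and *Psmd5*.

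Within each treated library the balance of the particles lay further to the core in the deposited values, by an amount that depended on the processing. Among members with under 10% shared words, the median change from ADPKD was 0.13 for the core and -0.92 for the regulatory particle. Centred by exon structure, the medians of all tested core and regulatory particle genes were 0.63 and -0.03. The core median minus the regulatory particle median was 1.81 and 1.94 on the log2(FPKM + 1) scale, and summed FPKM of the core was 1.89 and 1.81 times that of the regulatory particle, above all WT and ADPKD libraries. With 2 libraries against 2 no permutation test can reach 0.05, and none was run. The SD across the 31 subunit genes was 1.80 and 1.86, compared with 0.73 and 0.71 in ADPKD. The SD across all tested genes was 2.01 in both ADPKD+MMPP libraries and 1.69 and 1.73 in the ADPKD libraries. The order of the subunits changed too, with a Spearman rho of 0.417 to 0.479 across the 31 genes between ADPKD+MMPP libraries and the others, beside 0.501 to 0.596 across all tested genes. Members as a whole took 0.389% and 0.386% of all FPKM in ADPKD+MMPP, 0.396% and 0.42% in ADPKD and 0.339% and 0.343% in WT.

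**Figure D3:**
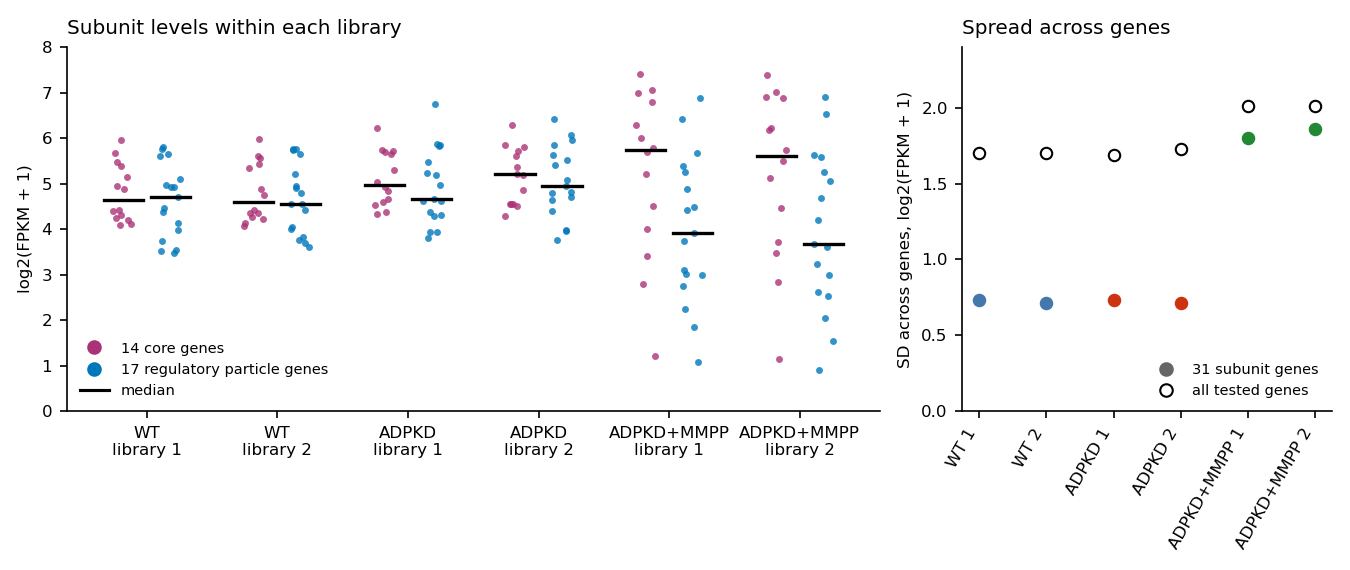
Left, log2(FPKM + 1) of the 14 core genes (purple) and 17 regulatory particle genes (blue) in each library, with black bars at the medians. Right, SD across the 31 genes (filled, coloured by group) and across all tested genes (open) in each library. The SD of the subunit genes is 0.71 to 0.73 in WT and ADPKD and 1.80 to 1.86 in ADPKD+MMPP, and that of all genes goes from 1.69 to 1.73 up to 2.01.

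Across protein-coding genes the change after treatment moved with gene structure. Over 12374 genes it followed the share of exon bases found in only 1 transcript of the annotation, with a Spearman rho of 0.648, a correlation across genes of the same libraries. Among the 34 members the rho was 0.124. Over the share of the main coding transcript that lies in no other transcript it was 0.677 for protein-coding genes (n = 12372) and 0.35 for the members. With exon length the rho was -0.459 for the members and -0.265 for protein-coding genes, and with the number of transcripts -0.413 and -0.506. *Psmc2* and *Psmb1*, with 95.6% and 76.9% of exon bases in 1 transcript, were among the genes that fell most, whereas *Psmb5* and *Psmb6*, with 30.8% and 41.8%, rose. Protein-coding genes with 90% to 100% of bases in 1 transcript had a median change of 1.09, and those with 30% to 40% had -1.04. *Psmc3*, *Psmc4* and *Psmd4*, at 30% to 31.7%, were lower and *Psma5* and *Psmd7*, at 76.9% and 92%, were higher, in the direction of their bins.

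After centring the libraries by this share in 20 bins, 1 member called higher and 1 called lower after treatment changed sign. *Psma2* went to -0.52 and *Psmd4* to 0.32, and *Psmc5*, not called at -0.35, was called higher at 1.76. *Psmd9*, not called at 0.28, was called lower at -0.83. The median of the regulatory particle genes went from -1.06 to -0.03 and that of the core genes from 0.46 to 0.63, so the regulatory particle median lay near 0 after this centring, still below that of the core. *Psmc3* kept its direction, as did *Psmc2*, *Psmb1* and *Psmd8* on the lower side and *Psma5*, *Psmb5*, *Psmb6* and *Psmd7* on the higher side. The part of the proximal tubule and other cell markers and of the read number pattern in these changes was not tested.

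**Figure D4:**
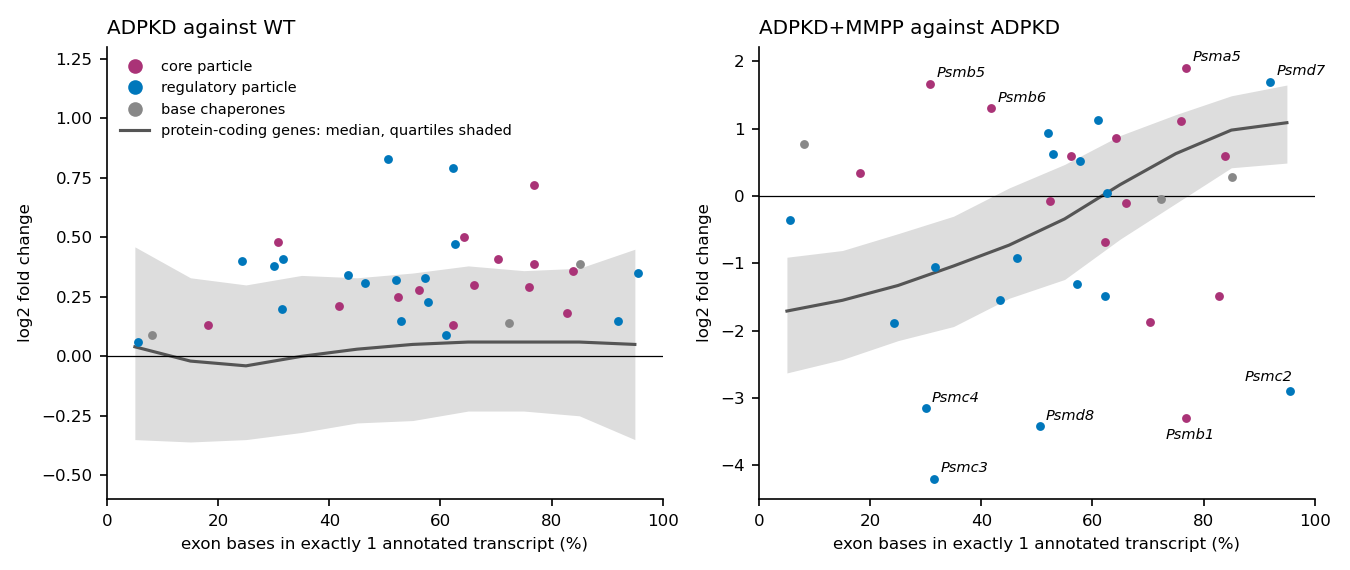
Log2 fold change of the 34 members against the percentage of the gene's exon bases found in only 1 transcript, in ADPKD against WT (left) and ADPKD+MMPP against ADPKD (right). Line and shading give the median and quartiles of protein-coding genes in bins of 10 percentage points. On the left the members lie above the line at every share. On the right the line climbs from -1.71 to 1.09, and members such as *Psmb5* lie far above it and *Psmb1* and *Psmc2* far below it.

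The remaining genes of the pathway were taken from lists of regulators, partners and substrates of the proteasome, with 38 of 39 symbols in the tables and 37 tested. In ADPKD against WT, 2 were called higher (5.41%, with 14.2% of all tested genes) and 1 lower (2.70%, with 12.5%), and their median log2 fold change was 0.05. The genes called higher were *Psmg4*, an assembly chaperone of the core (10.3 and 15.4 FPKM in WT and 19.4 and 19.3 in ADPKD, 0.59), and *Nploc4*, a cofactor of the p97 unfoldase (11.3 and 12.4 and 16.2 and 26.4, 0.76). The gene called lower was *Psmb9*. *Psmb8*, *Psmb9* and *Psmb10*, which replace *Psmb5*, *Psmb6* and *Psmb7* in immune-activated cells, were at 0.02, -0.86 and -0.13. *Psmb9* had 4.42 and 4.24 FPKM in WT and 3.17 and 1.06 in ADPKD, and the ADPKD libraries of *Psmb8* (10.3 and 6.47 FPKM) and *Psmb10* (21.1 and 13.3 FPKM) lay on either side of WT. The difference between these sets was not tested.

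*Adrm1*, a ubiquitin receptor whose symbol lies outside the rule, had 18.2 and 18.7 FPKM in WT, 23.2 and 27.3 in ADPKD, and 12.5 and 13.5 in ADPKD+MMPP. Its log2 fold change was 0.43 in ADPKD, with both libraries above WT, and -0.91 (SE 0.132, adjusted p = 0.00135 from limma) after treatment. *Sem1*, a small lid subunit, had 17.9 and 19.4 FPKM in WT, 18.4 and 18.3 in ADPKD, and 58.5 and 58.6 in ADPKD+MMPP, with -0.02 and 1.62 (SE 0.113, adjusted p = 8.68e-05 from limma) in the same order. Of the caps that can take the place of the regulatory particle, *Psme3* and *Psme4* were called higher after treatment at 1.06 and 1.41, *Psme1* and the inhibitor *Psmf1* were called lower at -2.08 and -2.14, and *Psme2* was not called at -0.31. Of the core assembly chaperones, *Pomp*, *Psmg1* and *Psmg4* were called higher and *Psmg2* lower, and *Psmg3* was below the filter. Over all 37 genes, 13 were called higher and 14 lower after treatment, with a median of 0.11. Their 73.0% called was close to the 70.9% of all tested genes.

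Genes upstream of the subunit genes had patterns of their own. *Nfe2l1*, which encodes NRF1, had 103 and 101 FPKM in WT, 83.7 and 76 in ADPKD, and 2.52 and 2.06 in ADPKD+MMPP. Its log2 fold change was -0.35 (SE 0.131, adjusted p = 0.1 from limma) in ADPKD against WT, which was not called, and -4.62 (SE 0.131, adjusted p = 1.95e-05 from limma) after treatment. *Nfe2l1* has 12 annotated transcripts and 11% of its exon bases in only 1 of them. Protein-coding genes with 10% to 20% had a median change of -1.55 after treatment. *Ddi2* and *Ngly1*, which process the NRF1 protein, were at 0.20 and 0.00 in ADPKD and at 0.55 and -0.60 after treatment, the latter called lower. *Vcp*, the p97 unfoldase, had 56.5 and 59 FPKM in WT, 60.7 and 63.2 in ADPKD, and 147 and 159 in ADPKD+MMPP, with 1.29 (SE 0.115, adjusted p = 0.000204 from limma) after treatment, while its cofactors *Ufd1* and *Nploc4* were called lower at -2.05 and -2.17. *Ubb*, which supplies ubiquitin, had 907 and 1097 FPKM in WT, 1035 and 929 in ADPKD, and 1208 and 1179.7 in ADPKD+MMPP. It was not called at 0.28 after treatment.

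NRF1 and NRF2 bind the antioxidant response motif, searched here as TGACNNNGC on both strands of the 250 bases before each start. Of the 29 members with a RefSeq promoter, 5 held a match (17.2%), with 11.5% of all 27025 genes. The matches are shown with up to 10 bases on either side, 5′ to 3′ on the gene's strand, the motif or its reverse GCNNNGTCA in capitals.
Psmb5 (chr14:54618024-54618052, - strand): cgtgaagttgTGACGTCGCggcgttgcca
Psmb6 (chr11:70525338-70525356, + strand): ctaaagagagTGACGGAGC
Psmd9 (chr5:123228149-123228177, + strand): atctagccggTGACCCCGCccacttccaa
Psmc6 (chr14:45329587-45329615, + strand): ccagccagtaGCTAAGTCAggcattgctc
Psmd12 (chr11:107479278-107479299, + strand): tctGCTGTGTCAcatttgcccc
The matches start 47, 9, 31, 227 and 247 bases before the start of *Psmb5*, *Psmb6*, *Psmd9*, *Psmc6* and *Psmd12*. The match in *Psmd9* overlapped a GGGCGG, and the others overlapped neither GGGCGG nor CCAAT. The log2 fold changes of these genes were 0.48, 0.21, 0.39, 0.23 and 0.31 in ADPKD against WT. After treatment they were 1.67, 1.31, 0.28, 0.52 and -0.92, of which the first pair were called higher and the last was called lower.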

How the data were processed

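Sequencing covered poly(A) RNA from DBA-positive kidney cells, in 3 groups of 2 libraries each. The authors aligned reads to GRCm38 with HISAT2 2.1.0, counted them with featureCounts 1.6.0 and deposited FPKM per gene and library. The annotation release, the strand setting and the step from counts to FPKM are not given in the sources used here. The authors' DESeq2 test was not used, since FPKM are not counts. The 14862 genes that reached 1 FPKM in 2 or more libraries were tested with limma 3.58.1 in R 4.3.3 on log2(FPKM + 1), in 1 fit over the 6 libraries, and fold changes on this scale understate the change of low genes. A call needed a fold change of at least 1.5 and an unadjusted P under 0.05, the thresholds of the study, and Benjamini-Hochberg adjusted p over all tested genes was given beside it.

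Depth came from the low values, which times exon length in GENCODE vM21 fell within 0.05 of a whole read for 98.3% to 99.0% of them. Of 55367 symbols, 53253 matched 1 gene of that annotation. Counting error was not modelled per gene. Replicates correlated across genes with Pearson's r of 0.984, 0.958 and 0.992 in WT, ADPKD and ADPKD+MMPP. The fit was also run on simulated data with known changes, after the main fits, and no result of that run is used here. Promoters came from RefSeq on GRCm38.p6. Sequence sharing was the share of 50-base words of a gene's transcripts found in another gene of GENCODE vM21.

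The members and gene lists were chosen with earlier results of these data known, so lists were described by counts and medians without a test. One gene on the lists is not reported by name here. Every member could be named, and values of each library were given for the catalytic subunits, the ATPases, the scaffolds and receptor, the deubiquitinase, the chaperones, *Psma8*, *Psmb11* and the 2 highest and 2 lowest changes of each particle in each comparison. Alternatives covered the pseudocount, the filter, the scaling, gene structure, the fit, the thresholds, a replicate block and leaving out each replicate.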

Additional observations from a re-analysis of the deposited data

How the results depend on the processing

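In ADPKD against WT, the number of members called higher by limma was 3 under every scaling, pseudocount and filter tried, 0 at a fold of at least 2, and 2 to 4 with 1 library left out, and none was called lower in any of these. Among the 24 members with under 10% of their words shared with another gene, an alternative chosen after seeing the data, 1 was called. Over all tested genes of each particle, the core and regulatory particle medians ranged from 0.29 to 0.34 and from 0.26 to 0.40 with 1 library left out. These medians were 0.21 and 0.25 with a common sum, and 0.24 and 0.27 with median ratio scaling.

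In ADPKD+MMPP against ADPKD, the 12 members called higher became 7 after scaling to a common sum, 6 at a fold of at least 2 and 7 of the 24 with few shared words. The 14 called lower became 9 when centred by principal transcript share, which was also chosen after seeing the data, and 9 of the 24. With 1 library left out the numbers were 10 to 12 higher and 13 to 14 lower. The core median of 0.46 became 0.16 with a common sum, 0.17 under quantile normalization, 0.63 centred by exon share, 0.77 centred by principal transcript share and 0.13 among the 24. The regulatory particle median of -1.06 became -1.36 with a common sum, -0.03 centred by exon share and -0.25 centred by principal transcript share. With 1 library left out these medians ranged from 0.38 to 0.50 and from -1.21 to -0.91.

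In ADPKD+MMPP against WT, the 14 called higher became 8 with a common sum, 8 at a fold of at least 2 and 9 of the 24, and the 13 called lower became 7 centred by exon share and 7 centred by principal transcript share. The core median of 0.67 became 0.28 with a common sum, 0.33 under quantile normalization, 0.57 with median ratio scaling, 0.88 and 1.07 centred by exon share and by principal transcript share, and 0.34 among the 24. With 1 library left out it ranged from 0.59 to 0.75. The regulatory particle median of -0.65 became -1.03 with a common sum and changed sign to 0.26 and 0.02 under the exon share and principal transcript share centring. With log2 of summed FPKM, core minus regulatory particle was -0.18, -0.22 and 0.89 for WT, ADPKD and ADPKD+MMPP, against -0.01, 0.28 and 1.87 with medians.

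Centred by exon share, the sign of the change after treatment turned for *Psma2* (-0.52), *Psmc5* (1.76), *Psmd4* (0.32), *Psmd9* (-0.83) and *Psmb2* (0.57, called in neither), and against WT for *Psma2* (-0.20), *Psmc5* (1.69), *Psmd2* (0.12), *Psmd4* (0.70), *Psmd12* (0.26), *Psmd9* (-0.48) and *Psmd5* (-0.36, called in neither). Centred by principal transcript share, it turned after treatment for *Psma1* (0.61), *Psma2* (-0.55), *Psmc5* (1.31), *Psmd4* (0.59) and *Psmd9* (-0.58, called in neither), with *Psmb2* and *Psmc6* at 0.00, and against WT for *Psma2* (-0.23), *Psmc5* (1.40), *Psmd1* (0.02), *Psmd4* (1.03), *Psmd9* (-0.17) and *Psmd5* (-0.44, called in neither). The cause of these changes was not tested. No single-gene call in ADPKD against WT changed sign. A replicate block left the numbers of called members at 3 and 0, at 12 and 14, and at 14 and 13 in the 3 comparisons. The labels do not say that replicate numbers pair animals, and deviations of same-numbered libraries correlated at 0.129, -0.00796 and 0.0137, so the numbers were not read as pairs. Depth of 10.9 and 11.8 M reads limits the precision of low genes in ADPKD+MMPP.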

Other observations

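Further gene groups round the proteasome differed in direction in ADPKD against WT. All 5 genes for the alternative caps and inhibitor had a positive log2 fold change, where 52.3% of all tested genes did. Their median was 0.17 and none was called, where 26.7% of all tested genes were. Of 8 genes for ubiquitin enzymes and shuttles bound to the proteasome, such as *Usp14*, *Rad23b* and *Ubqln1*, none was called by limma, 4 had positive and 4 negative log2 fold changes, and 2 were higher and 1 lower by unadjusted P alone. Of 6 genes for ubiquitin and its activating enzymes none was called, and 1 was higher by unadjusted P, *Uba6* at 0.45. The nuclear import factors of the proteasome, *Akirin2* and *Ipo9*, were at 0.23 and 0.01. After MMPP treatment 3 of the 8 enzymes and shuttles were called higher and 3 lower, a share close to the 70.9% of all tested genes, and *Akirin2* was called higher at 0.87.

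Of the other cell markers, 2 of 4 thick limb and distal tubule markers were called lower in ADPKD against WT, 3 of 5 tested fibroblast markers were called higher and 1 lower, the 1 lymphocyte marker that passed the filter was called lower, and neither of 2 tested erythroid markers was called. In ADPKD+MMPP both libraries listed the erythroid marker *Alas2* at 0.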
